A study of Mus musculus with 4 samples.

Results

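The 2 mesenchymal-like clonal tumor cell lines M1 and M2 were compared by the log2 expression levels of every probe set with a single gene symbol, with 1 array for each line. These probe sets numbered 21789 of the 35556 on the array and covered 19938 genes, and all of them are in the comparison, which was read as the M1 level minus the M2 level. All 4 lines of the study, M1, M2 and the epithelial lines E1 and E2, were derived from 1 mammary tumor that arose in a female FVB Tg MMTV/neu mouse, in which the mouse mammary tumor virus promoter drives a rat ErbB2 (neu) transgene in the mammary gland. The mesenchymal-like lines were cloned by limiting dilution from tumor cells sorted for low neu and low CD24, and the epithelial lines from the cells high in both. M1 and M2 grew in the same medium, MEGM with 2% serum, epidermal growth factor, insulin, hydrocortisone and bovine pituitary extract, while E1 and E2 grew in RPMI with 20% serum, so that differences of M1 or M2 from the epithelial lines cannot be told apart from the medium. Each line is 1 clone with 1 array, so that no test could be made between M1 and M2. Precision is limited by the number of arrays, and differences are given as sizes and counts. In RNA from a whole culture, fewer cells with a transcript and less of it in each cell cannot be told apart.

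Epithelial to mesenchymal transition is a change in which carcinoma cells lose cell junctions and gain the shape and migratory behavior of mesenchymal cells. Clones of mesenchymal-like cells from the same tumor can nevertheless differ in growth, in the signals they secrete and in the tissue they can build, and the study set M1 and M2 side by side as mesenchymal-like clones that differ in tumor formation in the mammary fat pad. A direct comparison of these clones asks which transcripts separate them when mouse, tumor and medium are shared, and the differences between 2-fold and 10-fold cover most of the genes that do.

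Most markers of the mesenchymal-like label were alike in M1 and M2. Cdh1, which encodes E-cadherin, was at 6.70 in M1 and 6.51 in M2 against 12.15 in E1 and 12.31 in E2, and the epithelial adhesion protein Epcam was at 5.77 and 5.46 against 12.70 and 12.76. The intermediate filament Vim was at 13.72 in M1 against 13.82 in M2, and at 12.79 and 13.10 in the epithelial lines. The transcription factors Zeb1 and Twist1, which repress epithelial genes, were at 10.99 and 9.27 in M1, 10.64 and 9.99 in M2, and between 6.24 and 7.49 in E1 and E2. RNA of Cd24a, the gene of the sorted antigen, was not lower in the mesenchymal-like lines, at 12.39 in M1 against 12.53 in M2, 11.61 in E1 and 12.15 in E2. The sort read CD24 by antibody on tumor cells before cloning, and the arrays do not measure protein. Erbb2 was at 10.58 in M1 against 11.03 in M2, 11.83 in E1 and 11.95 in E2. Whether its mouse probe set also reads the rat transgene was not tested.

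Between M1 and M2, 645 genes were at least 2-fold higher in M1, which is 3.24% of 19938, and 520 were at least 2-fold lower, which is 2.61%. Of these, 57 were at least 10-fold higher (0.286%) and 38 at least 10-fold lower (0.191%), so that 588 and 482 genes lay between 2-fold and 10-fold. The shares of 3.24% and 2.61% are the background for the list counts below. A count near them is not read as a result about its list. The median difference over all genes was -0.00 on the log2 scale, with 9847 genes above 0 and 10074 below. The other pair of clones that shared a medium, E1 and E2, were at least 2-fold apart in 427 genes (2.14%). The root mean square difference was 0.58 between M1 and M2 and 0.40 between E1 and E2. Families that serve here as a reference had few members past 2-fold. Of 1015 olfactory receptors, which are read at a median level of 4.47 in M1 and 4.57 in M2, 0 were at least 2-fold higher in M1 and 2 lower (Olfr1463 and Olfr32), and 99% of them differed by no more than 0.55. The spread was wider in 169 vomeronasal receptors, with 0 at least 2-fold higher and 3 lower, down to -3.46. Of these, 99% differed by no more than 1.55. Among brighter genes, 59 ribosomal proteins ranged from -0.74 to 0.74 with a median of -0.03 and 39 proteasome subunits from -0.76 to 0.83 with a median of 0.15, with 0 in either family at least 2-fold apart.

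**Figure D1:**
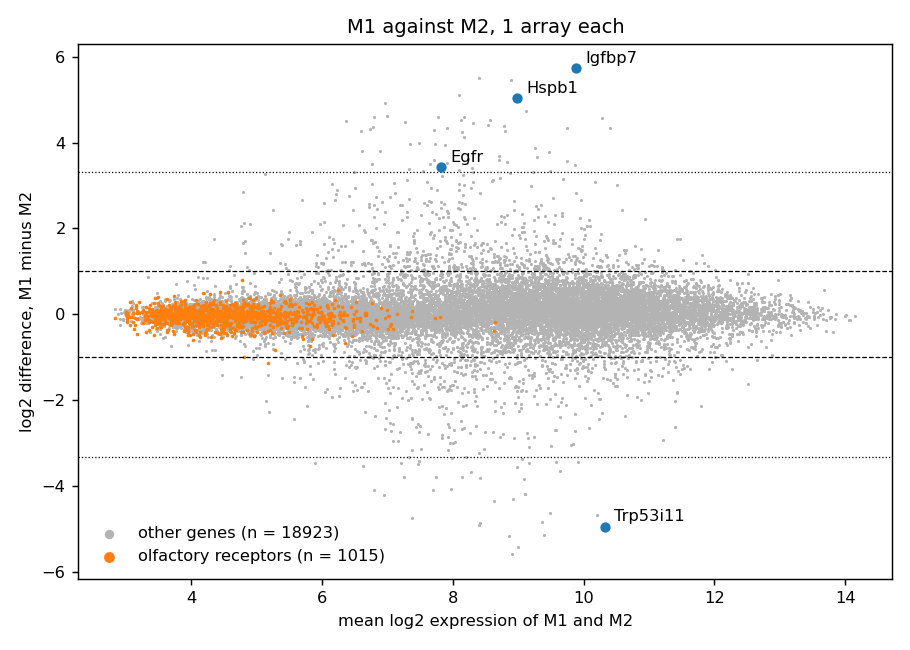
Each point is a gene, placed by the mean log2 expression of M1 and M2 (x axis) and by the log2 difference M1 minus M2 (y axis); orange points are olfactory receptors, dashed lines mark 2-fold and dotted lines 10-fold. The olfactory receptors form a narrow band around 0 at low levels, while Igfbp7, Hspb1 and Egfr lie above the upper 10-fold line and Trp53i11 below the lower.

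The 4 marker genes of the comparison showed that either clone could be the one that departs. Igfbp7, a secreted protein that binds insulin-like growth factors, was at 12.76 in M1 against 7.02 in M2, 7.04 in E1 and 7.06 in E2, so that M1 alone was high. The small heat shock protein Hspb1 had 2 probe sets with differences of 5.04 and 5.31, and M2 lay at the level of the epithelial lines in both. Egfr, the receptor of epidermal growth factor, was instead low in M2, at 9.54 in M1, 9.38 in E2, 7.98 in E1 and 6.11 in M2, 10.8-fold apart between the mesenchymal-like lines with M2 the lowest line. Trp53i11, a p53-induced gene, was at 7.86 in M1 and 12.81 in M2 with E1 at 9.63 and E2 at 11.39, and the 4 lines did not group by type.

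Across the genes between 2-fold and 10-fold, the epithelial mean was used to see which clone stood apart. For the 588 genes higher in M1, that mean was closer to M2 in 330 and closer to M1 in 258. For the 482 genes lower in M1 it was closer to M1 in 306 and closer to M2 in 176. In both directions, then, the clone with the higher level was more often the one away from the epithelial lines. At 10-fold and more the split was wider, with the epithelial mean nearer to M2 in 46 of 57 genes higher in M1 and nearer to M1 in 26 of 38 genes lower in M1. A low level on the array limits a fold, and the lower of M1 and M2 did not reach the file median (over all values), 6.78, in 182 of the 588, 135 of the 482, 43 of the 57 and 24 of the 38 genes. No background level is given, and a fold with a level in this range may understate the ratio of transcripts.

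Genes of DNA replication were shifted toward M1 as a group. These genes build the helicase, polymerases and nucleotide supply that copy DNA in S phase. Of 41 measured, 9 were at least 2-fold higher in M1 and 1 lower, 38 were above 0, and the median difference was 0.72, against -0.00 over all genes. The median stood at 0.60 in M1 relative to the epithelial mean and at -0.09 in M2, and at 0.22 for E2 against E1, with 0 members at least 2-fold apart in the epithelial pair. Cyclin E1 (Ccne1), which drives entry into S phase, was at 9.27 in M1 and 7.79 in M2, against 8.17 in E1 and 8.13 in E2. The nuclease Exo1 was at 9.01, 7.70, 7.47 and 8.12 in the same order, and the chromatin assembly subunit Chaf1b at 10.59, 9.39, 10.18 and 10.33. M1 was the highest line for each of these 3 genes. The ribonucleotide reductase subunit Rrm1 was 2.19-fold higher in M1 than in M2, thymidylate synthase Tyms 2.09-fold, DNA ligase Lig1 2.09-fold and the helicase subunit Mcm5 2.05-fold. The other subunits of the Mcm helicase, named after their values were seen, were under 2-fold, at 0.96 for Mcm2, 0.72 for Mcm3, 0.92 for Mcm4, 0.66 for Mcm6 and 0.79 for Mcm7. The exception past 2-fold was E2f8, a repressor of the E2F family, at 10.36 in M1 against 11.42 in M2 and at 8.37 and 8.86 in the epithelial lines.

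Genes of mitosis and the spindle, which act later in the cycle, shared little of this shift between the clones. All 41 lay within 2-fold, from -0.36 to 0.74, with 28 above 0, 13 below and a median of 0.16. Both clones were above the epithelial mean for this list, by a median of 0.79 in M1 and 0.64 in M2. The epithelial lines themselves lay apart on it, with a median of 0.58 higher in E2 than in E1. D-type cyclins, their kinases and the Cdk inhibitors were also within 2-fold in all 14 measured, with a median of 0.07.

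Targets of the tumor suppressor p53 had a median difference of 0.63. Of 29 measured, 9 were at least 2-fold higher in M1, 2 lower and 24 above 0. M1 lay above the epithelial mean by a median of 0.42 and M2 lay at a median of -0.14 from it. Ddit4l, an inhibitor of mTOR signaling, was at 9.44 in M1 and 6.22 in M2, against 6.07 in E1 and 6.41 in E2, with M1 apart. The kinase Plk2 was at 10.53, 8.01, 11.20 and 11.66 in the same order, with M2 apart. The antiproliferative gene Btg2 (10.39, 8.66, 10.47 and 9.65) and the exonuclease Aen (9.70, 8.14, 8.95 and 8.94) also had their lowest level in M2. Beside Trp53i11, the member at least 2-fold lower in M1 was Pltp, a phospholipid transfer protein, at 7.81 in M1 and 11.47 in M2, 12.6-fold apart.

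The glycolysis and hypoxia genes were shifted toward M2. These genes encode the enzymes that split glucose and the targets of hypoxia-inducible factors, which cells use when oxygen is short. Of 35 measured, 9 were at least 2-fold lower in M1 and 1 higher, 29 were below 0, and the median was -0.42. M1 stood near the epithelial mean, with a median of -0.07, while M2 was above it by 0.45. Adrenomedullin (Adm), a vasodilator peptide, was at 5.94 in M1 and 10.01 in M2, against 7.09 in E1 and 6.23 in E2, and the enolase Eno2 at 7.96, 11.04, 7.70 and 8.02. M2 alone was high for both. Pfkfb3, which makes the activator of phosphofructokinase, was at 8.27, 9.87, 7.09 and 6.97 in the 4 lines, high in both clones and higher in M2. The mitochondrial protein Bnip3 was at 9.44, 10.80, 9.56 and 8.77, and the oxygen-sensing prolyl hydroxylase Egln3 at 11.63, 12.91, 12.26 and 11.43. For Pfkl, a phosphofructokinase subunit, M1 was the line apart, at 10.38 against 11.69 in M2 and 11.54 and 11.58 in the epithelial lines, and likewise for the angiogenic factor Vegfa, at 10.48 against 11.92 in M2, 11.74 in E1 and 11.19 in E2. The aldolase Aldoc was the member higher in M1, at 9.55 against 6.64 in M2, and both were below the epithelial lines at 12.75 and 12.60. Oxygen, glucose and cell density of the cultures are not given in the labels, and their part was not tested.

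Oxidative phosphorylation genes, which encode the respiratory chain and ATP synthase, lay on the other side of 0 by a small amount. Of 40 measured, 32 were above 0, with a median of 0.22, beside 30 of the 39 proteasome subunits, with a median of 0.15. Of the oxidative phosphorylation genes, 2 were at least 2-fold higher in M1 and 0 lower. Ndufa4 was at 10.16 in M1 and 7.73 in M2, against 10.96 in E1 and 11.08 in E2, and Ndufa1, which lies on the X chromosome, at 8.96, 7.59, 8.48 and 8.32, so that M2 was the lowest line in both.

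**Figure D2:**
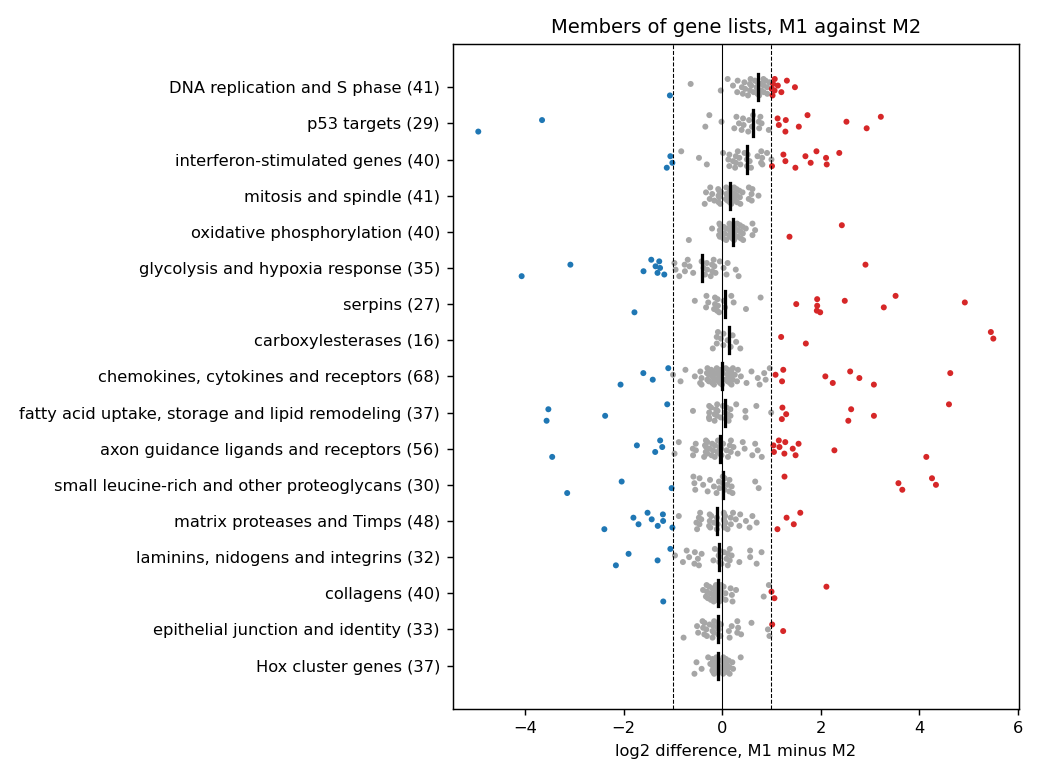
Each point is a measured member of a gene list (rows, number measured in parentheses), placed by its log2 difference M1 minus M2; red and blue points are at least 2-fold higher and lower in M1, gray points are within 2-fold, and black bars are list medians. The replication, p53 and interferon lists have medians of 0.72, 0.63 and 0.51, and the glycolysis and hypoxia list -0.42. The mitosis and Hox lists have no member past 2-fold, and only 12 of 37 Hox genes are above the file median in either clone.

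Interferon-stimulated genes, the antiviral genes that interferons switch on, were higher in M1 than in M2 in most members. Of 40 measured, 10 were at least 2-fold higher in M1 and 3 lower, 34 were above 0, and the median was 0.51. This list also differed most within the epithelial pair, where 36 of 40 were at least 2-fold apart with a median of 2.64 higher in E2, so that sister clones of 1 type lay farther apart on it than M1 and M2 did. Ifit3, which binds viral RNA complexes, was at 8.48 in M1 and 6.10 in M2, against 7.34 in E1 and 11.61 in E2. Its relative Ifit1 was at 8.70, 6.58, 6.15 and 10.90 in the same order. Usp18, which removes the ubiquitin-like Isg15 from proteins, was at 9.27, 7.17, 7.50 and 12.82, and the double-stranded RNA sensor Ifih1 at 8.95, 7.26, 8.02 and 10.83. For each of these 4 genes E2 was highest and M1 second. Irf7, a transcription factor that amplifies the interferon response, was closer to E1, at 7.97 in M1 against 6.69 in M2, 7.49 in E1 and 12.33 in E2. The 3 members lower in M1, named after their values were seen, were Isg20 (10.48 in M1 and 11.49 in M2), Oasl1 (7.50 and 8.55) and Ifi203 (7.92 and 9.05).

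The promoters of these members are shown because the genes differed in the same direction and their response to interferon runs through a short element, the interferon-stimulated response element. RefSeq promoters (250 bases before to 50 after a gene start, GRCm38.p6) were searched on both strands for GAAA, any 2 bases, GAAA, and 3.44% of 32851 promoters and 3.89% of 15614 measured genes with a promoter held a match. Of the 10 members at least 2-fold higher in M1, 7 had a promoter in the table and 3 held a match, and of the other members 12 of 20 did. The matched stretches, on the strand of the gene with 1 match each in capitals, came from chr19:34640760-34640819 and chr19:34583348-34583407 (both + strand) and from chr2:62646206-62646248 (- strand). In Ifit1 and Ifit3 the match reads on the opposite strand, so that the capitals show its reverse complement. The stretch of Ifit1 holds a further match, left in lower case.
Ifit1: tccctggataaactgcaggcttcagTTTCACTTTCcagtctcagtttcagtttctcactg
Ifit3: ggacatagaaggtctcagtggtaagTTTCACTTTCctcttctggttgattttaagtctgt
Ifih1: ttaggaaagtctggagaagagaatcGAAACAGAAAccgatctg

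For the glycolysis and hypoxia list, the core of the hypoxia response element, ACGTG on either strand, was in 19.6% of all promoters and 24.4% of those of measured genes. It was in 5 of the 9 members at least 2-fold lower in M1 and in 18 of 24 others. Bnip3 is shown as an example, at chr7:138909584-138909638 on the - strand, where the capitals mark a core that overlaps its own reverse complement by 4 bases. For the replication list, a site of the E2F factors (TTT, then C or G, then GCGC) was in 2.26% of all promoters, in 3.48% of those of measured genes, in 2 of 7 members at least 2-fold higher in M1 and in 10 of 27 others. A match is a description of these windows, and binding was not measured.
Bnip3: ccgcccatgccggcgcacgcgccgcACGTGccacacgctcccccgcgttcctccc

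**Figure D3:**
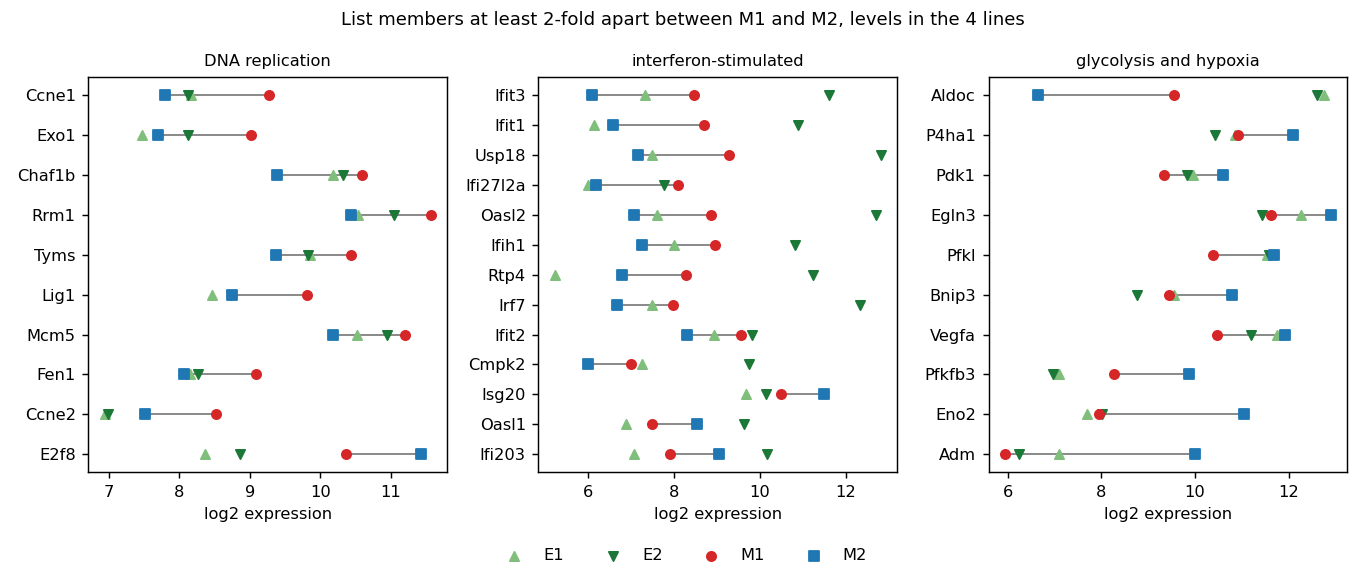
Log2 expression (x axis) of the members of 3 lists with M1 and M2 at least 2-fold apart, in M1, M2, E1 and E2, 1 array each, with a gray line from M1 to M2. M1 is right of M2 in all replication genes but E2f8, E2 is far to the right in most interferon genes, and M2 is right of the other 3 lines in most glycolysis and hypoxia genes, among them Adm at 10.01 and Eno2 at 11.04.

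Ligands and receptors of growth factors differed in single members, and the list medians stayed near 0. Over all genes, 3.24% were at least 2-fold higher in M1 and 2.61% lower. Among 16 ErbB receptors and EGF family ligands, 2 were at least 2-fold higher in M1 and 1 lower, with a median of -0.11. Opposite to the receptor Egfr, its ligand betacellulin (Btc) was at 8.54 in M1 and 10.68 in M2, with E1 at 9.18 and E2 at 9.11. The ligand Nrg3 was the other member higher in M1, at 6.61 against 5.58. In the platelet-derived growth factor family the 2 receptors went in opposite directions. Pdgfrb was 12.1-fold higher in M1 than in M2, whereas Pdgfra was at 8.71 in M1 and 10.20 in M2. The ligand Pdgfc was at 11.28 in M1 and 8.63 in M2, against 10.45 in E1 and 10.28 in E2.

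The insulin-like growth factor list had 4 of 17 members at least 2-fold higher in M1 and 1 lower, with a median of 0.07. Igf1r, the signaling receptor, was at 10.51 in M1 and 9.25 in M2, with the epithelial lines at 10.46 and 10.34, so that M2 was the low line. Igf2r, which clears the ligand Igf2, was the reverse, at 9.06 in M1 against 11.17 in M2, 12.19 in E1 and 11.96 in E2. The RNA-binding protein Igf2bp1 was at 9.44 in M1 against 6.85 in M2 on its brighter probe set, a difference of 2.59, while the other probe set differed by 0.58, and Igf2bp3 was 3.26-fold higher in M1. Among 25 fibroblast growth factor genes, 2 were at least 2-fold higher and 2 lower. The ligand Fgf2 was at 8.67 in M1, against 5.66 to 5.98 in the other 3 lines. The feedback inhibitors split, with Spry1 2.15-fold higher in M1 and Spry2 and the phosphatase Dusp5 2.64-fold and 2.97-fold lower.

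Of 46 genes of the TGF-beta, BMP and activin pathway, 6 were at least 2-fold higher in M1 and 2 lower, with a median of 0.04. The ligands among them were higher in M1. Bmp4 was at 11.80 in M1 and 9.37 in M2, against 5.89 in E1 and 6.08 in E2. Tgfb1 was at 10.94, 9.10, 6.93 and 8.67 in the same order, and the activin subunit Inhba at 10.77, 9.64, 7.20 and 6.71. Bmp4 and Inhba were high in both clones, and Tgfb1 in M2 was near its level in E2, whereas Tgfb2 was at 10.97, 11.35 and 10.56 in E1, E2 and M1 and at 8.27 in M2. Id4, an inhibitor of helix-loop-helix factors, was 20.9-fold higher in M1 and Id2, of the same family, 2.23-fold lower. The secreted matrix protein Tgfbi, induced by TGF-beta, was 6.67-fold lower in M1.

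Among VEGF and angiopoietin genes, 4 of 18 were at least 2-fold higher in M1 and 2 lower. Vegfc and Vegfd, which act on lymphatic vessels, were 3.08-fold and 3.37-fold higher in M1, and the coreceptor Nrp1 was at 10.86 in M1 and 8.49 in M2, against 6.94 in E1 and 5.73 in E2. Vegfa, of the hypoxia list, and Angpt4 (2.29-fold) were the members lower in M1, and Angpt1 was 19.9-fold higher. In the Notch pathway, with 3 of 21 higher and 1 lower, the ligand Jag1 was at 10.63, 8.72, 12.12 and 11.59 in M1, M2, E1 and E2, and the target Hes1 at 10.08, 8.03, 10.76 and 10.70. Both had M2 as the lowest line. The fringe enzyme Lfng was 2.37-fold higher in M1 and the Notch-regulated gene Nrarp 2.82-fold lower. Nrarp was at 6.21 in M1, below the file median.

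Wnt, Hedgehog and Hippo genes were mostly within 2-fold, like all genes, of which 3.24% were higher in M1 and 2.61% lower. Of 48 Wnt genes, 2 were higher and 2 lower. Axin2, a feedback target of the pathway, was at 8.74 in M1 against 7.02 in M2, and the ligand Wnt6 at 8.17 and 6.72, while the ligand Wnt7b was at 9.75 and 11.26. The Hedgehog-binding protein Hhip was the single member of 13 past 2-fold in its pathway, at 12.01 in M1 and 9.01 in M2, against 5.40 in E1 and 5.76 in E2. Of 16 Hippo pathway targets, 4 were at least 2-fold higher in M1, among them Nuak2 (3.59-fold) and Ccn1 (2.81-fold), and Ankrd1 was 6.55-fold lower, at 8.52 in M1 and 11.23 in M2. Of 23 genes of other receptor kinases, such as Met and Axl, with their ligands and coreceptors, 0 were higher and 3 lower. Gas6, a ligand of Axl and of the related receptor Mertk, was at 8.67 in M1 against 10.79 in M2, and Mertk itself at 9.58 and 10.76. The third was the coreceptor Gfra2, at 10.22 and 11.77.

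Axon guidance genes, which steer growing neurons and also act in cell sorting and vessel growth, had 16 of 56 members past 2-fold, 11 higher in M1 and 5 lower, with a median of -0.04. The semaphorins went both ways. Sema3c was at 10.24 in M1 and 6.09 in M2, against 10.02 in E1 and 9.13 in E2, and Sema5a at 8.19, 11.64, 9.71 and 10.79. Sema4a was 4.85-fold higher in M1, Sema6a 2.81-fold higher and Sema6b 2.57-fold lower. The ephrins split as well, with Efna5 2.93-fold and Efna3 2.70-fold higher and Efna2 3.32-fold lower. Of 6 neurotrophin genes, the receptors Ntrk3 (15.3-fold) and Sort1 (2.54-fold) were higher.

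Most genes of matrix breakdown and of cell attachment to matrix were within 2-fold in M1 and M2. The shares of all genes past 2-fold were 3.24% higher in M1 and 2.61% lower. Of 48 matrix proteases and Timps, 4 were at least 2-fold higher and 9 lower, with 23 above 0 and a median of -0.10. The stromelysin Mmp3 was at 8.44 in M1 and 10.84 in M2, against 5.05 in E1 and 5.32 in E2. The plasminogen activator Plau was at 7.33, 9.13, 5.71 and 5.68 in the same order, and the membrane protease Mmp14 at 7.84, 9.36, 6.77 and 6.98. M2 was the highest line and M1 second for these 3. The sheddase Adam8 was 2.70-fold lower in M1, and of the proteases higher in M1, Mmp28 was at 9.91 against 8.33 in M2 and Mmp11 was 2.74-fold higher. Of 32 laminins, nidogens and integrins, 0 were higher and 4 lower, all of them integrins. The laminin receptor Itga7 was at 7.66 in M1 and 9.82 in M2, the collagen receptor Itga10 at 7.40 and 9.30, the leukocyte integrin Itgb2 at 9.41 and 10.73, and the fibronectin receptor Itga5 at 10.71 and 11.76.

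Structural matrix genes past 2-fold went in both directions, beside 3.24% of all genes higher in M1 and 2.61% lower. Of 40 collagens, 3 were at least 2-fold higher and 1 lower, led by Col6a1 at 9.73 in M1 and 7.62 in M2 with the epithelial lines at 7.17 and 7.51. Col11a1 (2.08-fold) and Col12a1 (2.00-fold) were higher and Col18a1 2.29-fold lower. Matricellular proteins, which sit in the matrix and signal to cells, had 3 of 29 higher and 5 lower. Within the Ccn family, Ccn4 and Ccn5 were 5.59-fold and 4.99-fold higher in M1, and Ccn3 was at 7.71 in M1 and 10.60 in M2, against 5.91 in E1 and 5.91 in E2. Sparcl1 was at 7.75 in M1 against 10.51 in M2, and the tenascin Tnxb was 4.25-fold lower. Of 30 proteoglycans, 5 were higher, 4 of them past 10-fold, and 3 lower. The cell-surface heparan sulfate proteoglycans split, with Gpc4 2.40-fold higher and Gpc1 and Sdc3 4.12-fold and 8.86-fold lower. Elastic fiber genes had 1 of 17 past 2-fold, Efemp1, at 8.07 in M1, against 5.51 to 5.56 in the other lines. Of 44 cadherins and immunoglobulin adhesion molecules, 3 were higher and 1 lower, with Ncam2 at 8.51 in M1 against 5.02 in M2 and the cadherin Cdh13 at 6.83 and 11.97, 35.2-fold apart.

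Most detoxifying enzymes were within 2-fold, and most of those past it were higher in M1. In all genes the shares were 3.24% higher in M1 and 2.61% lower. The family medians were 0.14 for carboxylesterases, 0.06 for glutathione transferases, 0.10 for cytochromes P450, 0.20 for aldehyde dehydrogenases and 0.03 for aldo-keto reductases, and 10 of 20 glutathione transferases lay above 0. Carboxylesterases, which split esters of drugs and lipids, had 4 of 16 higher and 0 lower, 2 of them past 10-fold, with Ces2f 3.24-fold and Ces1f 2.29-fold. Glutathione transferases had 4 of 20 higher and 1 lower. Gsta3 was at 11.26 in M1 and 8.11 in M2, against 6.42 in E1 and 6.14 in E2. The microsomal enzyme Mgst1 was at 12.32, 10.55, 11.51 and 12.13 in the same order, with M2 apart, and Gstt2 was the lower one at 7.25 in M1 and 8.81 in M2. Of 26 cytochromes P450, 3 were higher, led by Cyp2f2 (3.73-fold), and Cyp27a1 was 3.96-fold lower. Aldehyde dehydrogenases had 2 of 20 higher and aldo-keto reductases 2 of 15 higher and 1 lower. Among 22 targets of Nrf2, the factor of the oxidative stress response, 3 were higher and 1 lower, with a median of 0.22. Gclc, the rate-limiting enzyme of glutathione synthesis, was at 12.46 in M1 and 11.34 in M2, heme oxygenase Hmox1 at 12.14 and 11.12, and the carbonyl reductase Cbr1 at 7.06 and 9.11. In the small heat shock protein family, 2 of 10 were higher, Hspb1 and Hspb8. Hspb8 was at 10.31, 7.12, 6.60 and 7.24 in M1, M2, E1 and E2. The larger chaperones had 0 of 25 past 2-fold and the endoplasmic reticulum stress genes 0 of 31.

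Genes of fatty acid uptake and storage had 7 of 37 members higher in M1 and 4 lower, beside 3.24% and 2.61% of all genes. The list median was 0.05. Lipoprotein lipase (Lpl), which frees fatty acids from lipoproteins, was at 9.40 in M1 and 6.79 in M2, against 5.52 in E1 and 5.89 in E2, and the transporter Slc27a6 at 9.14, 6.06, 7.01 and 7.35. The fatty acid translocase Cd36 was 24.3-fold higher in M1. In the other direction, the fatty acid binding protein Fabp4 was at 7.20, 10.77, 5.26 and 5.50 and the endothelial lipase Lipg was 5.19-fold lower in M1. M1 and M2 thus had high levels of different members. Among 32 genes of cholesterol and fatty acid synthesis, 1 was higher (Ebp, 2.09-fold) and 1 lower (Scd1, 2.09-fold). Amino acid transporters had 3 of 37 higher and 1 lower. Slc7a2, which imports arginine, was at 8.41 in M1, against 5.67 to 5.80 in the other lines, and Slc16a10 was the lower one at 5.62 in M1 and 7.09 in M2.

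Chemokines and cytokines had 9 of 68 members higher in M1 and 4 lower, beside 3.24% and 2.61% of all genes. Their median was 0.00. Monocyte-attracting chemokines were among the higher ones. Ccl2 was at 11.07 in M1 and 8.82 in M2, against 6.67 in E1 and 6.85 in E2. Ccl7 was at 9.85, 6.77, 6.57 and 6.51 in the same order, and Ccl9 at 9.55, 6.77, 6.41 and 6.92. M1 was the highest line for all 3. Ccl5, which is also induced by interferon, was at 9.84 in M1 and 7.75 in M2 but at 11.50 in E2. Il7, a growth factor of lymphocytes, was 6.05-fold higher in M1, with M2 at 4.73, below the file median. The receptor subunit Il13ra1, on the X chromosome, was at 9.31, 4.68, 10.25 and 11.02 in M1, M2, E1 and E2, with M2 apart. The cytokines Il33 and Tslp, released by epithelial cells, were lower in M1, at 7.91 and 5.84 against 9.98 and 7.44 in M2. Both clones lay above the epithelial lines, with Il33 at 5.40 in E1 and 5.83 in E2 and Tslp at 4.92 and 5.05. Of 29 prostaglandin and leukotriene genes, 2 were higher and 3 lower. The cyclooxygenase Ptgs2 was at 10.76 in M1 and 9.18 in M2, whereas the synthase Ptges, the next step to prostaglandin E2, was at 7.17 and 11.81, 24.9-fold lower in M1. The complement list had 3 of 30 higher and 3 lower. The complement protease C1s1, which that list does not hold, was at 8.96 in M1 against 4.59 in M2. The lower members were Masp1 (2.82-fold), Clu (3.20-fold) and the collectin Colec12 (48.5-fold). Of 20 genes of class I presentation, Tapbpl was 2.54-fold higher and Cd1d1 3.24-fold lower, and of 21 costimulatory and checkpoint ligands 3 were higher and 2 lower, among them Nectin2 (3.28-fold higher) and H60b (2.92-fold lower).

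Several of these differences fell in neighboring genes. Runs of at least 3 adjacent measured genes that were each at least 2-fold apart in the same direction numbered 13, with 8 higher and 5 lower in M1 and 45 genes in all. The longest was a run of 7 on chromosome 13, from Serpinb6b to Serpinb9e, which encode intracellular inhibitors of proteases. Serpinb9 was at 10.03 in M1 and 8.10 in M2, against 5.24 in E1 and 5.63 in E2. Serpinb9b was at 10.99, 9.01, 6.14 and 6.37 in the same order, and Serpinb6b at 9.67, 6.15, 5.48 and 5.52. Both clones were above the epithelial lines for these 3 genes, and differences in the run reached up to 3.52. Of the 27 serpins in the list used here, 9 were higher in M1 and 1 lower, Serpinb2, with a median of 0.06. Over all 48 genes with a serpin symbol, counted after the values were seen, 10 were higher and 1 lower, and the median was -0.03. On chromosome 14 the granule proteases Mcpt8, Ctsg, Gzme and Gzmd formed a run. Mcpt8, a protease of basophils, was at 12.35, 10.59, 5.07 and 5.85 in M1, M2, E1 and E2, and Gzme, a granzyme, at 12.57, 8.23, 7.35 and 7.98. Other genes of this protease cluster were looked at after the run was seen. Gzmb, at 5.16 in M1 against 5.10 in M2, and Gzmc, at 5.38 against 5.10, were within 2-fold. So were Cma1, Mcpt1, Mcpt4, Gzmf, Gzmg and Gzmn. Of these others, only the mast cell protease Mcpt2 was past it, at 5.68 in M1 against 3.96 in M2. All of them lay below the file median, 6.78, in both clones.

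On chromosome 6 the genes of the complement proteases C1r and C1s formed a run, with C1ra at 9.12 in M1 against 6.71 in M2 and C1s1 at 8.96 and 4.59, and on chromosome 8 the carboxylesterases Ces2e, Ces2f and Ces2g. A run on chromosome 11 held Ccl5, Ccl9 and E230016K23Rik, and on chromosome 19 Ifit2, Ifit3 and Ifit3b. A run on chromosome 17 held the zinc finger genes Zfp760, Zfp229 and Zfp820, where M2 was the line apart for Zfp760 and Zfp229, with Zfp229 at 8.46, 5.92, 7.97 and 7.70 in M1, M2, E1 and E2. The run Ntrk3, Mrpl46 and Mrps11 lay on chromosome 7. Runs lower in M1 were the metalloproteases Mmp3, Mmp1a and Mmp10 on chromosome 9, the skin barrier genes Lce1g, Lce1h and Lce1i on chromosome 3, the vomeronasal receptors Vmn1r42, Vmn1r43 and Vmn1r44 on chromosome 6, and 2 runs on chromosome 12, Kif3c with 1110002L01Rik and Asxl2, and Zfp386 with Vipr2 and Wdr60. Members of a family in tandem can share probe signal where their sequences are near-identical, which was not tested.

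**Figure D4:**
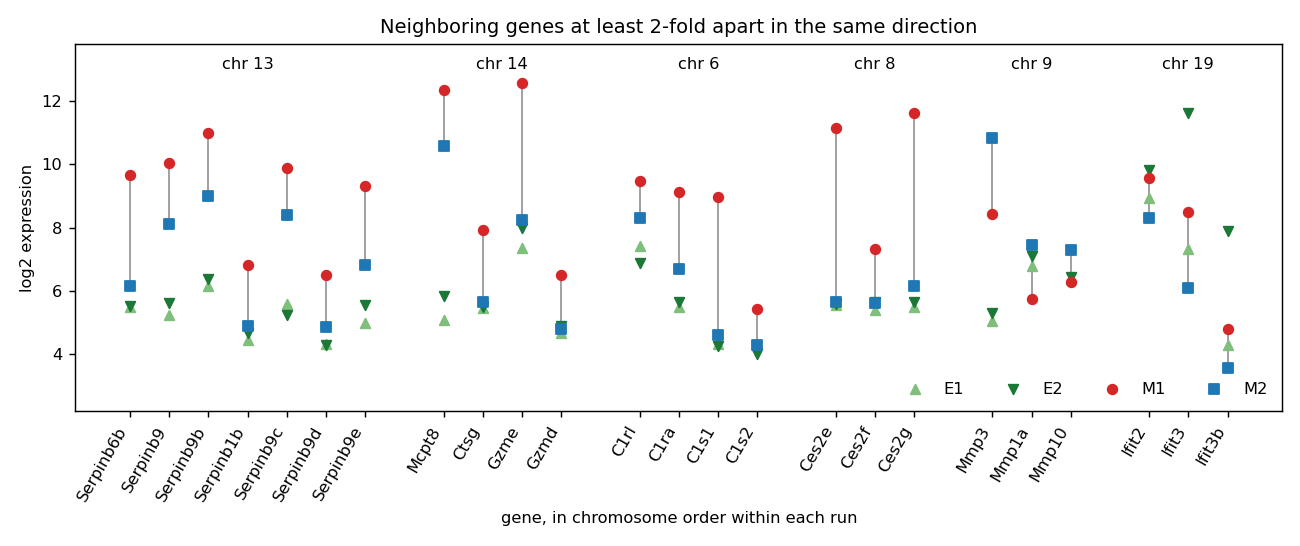
Log2 expression (y axis) in M1, M2, E1 and E2, 1 array each, of 6 of the 13 runs of neighboring genes, in chromosome order, with a gray line from M2 to M1. M1 lies above M2 in the runs of chromosomes 13, 14, 6, 8 and 19 and below it in the Mmp run of chromosome 9, and the epithelial lines are at the lowest levels for most of the serpin genes.

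Along whole chromosomes, chromosome 12 stood apart from the rest. Over the 12111 genes whose higher level of M1 and M2 was above the file median, 5568 (46.0%) were lower in M1 and 495 (4.09%) at least 2-fold lower. On chromosome 12, 380 of 418 such genes were lower in M1 (90.9%) and 59 at least 2-fold lower (14.1%), against 44.3% lower on the other chromosomes. The median difference was -0.53, with quartiles of -0.82 and -0.23, and it was -0.28 over all 652 genes of the chromosome. The deviation lay in M1. M1 was at a median of -0.52 from the epithelial mean, while M2 was at 0.03 from it and E2 at 0.01 from E1. The shift ran the length of the chromosome, since all 368 windows of 51 neighboring genes had a median below 0. These windows overlap, and each shares most of its genes with the next. Their medians went from -0.74 between Egln3 and Timm9, with 49 of 51 genes lower in M1, to -0.23 between Tmem251 and Mir668. Named genes there were Adssl1, a muscle form of adenylosuccinate synthase, at 6.27 in M1 and 11.44 in M2, the acyltransferase Mboat2 at 4.86 and 8.38, Egln3 and Id2. Twist1 also lies there, at 9.27 in M1 against 9.99 in M2. The 3 genes at least 2-fold higher in M1 were Ifi27l2a and Cmpk2, of the interferon list, and Vsnl1, named after its value was seen. Without the genes of chromosome 12 the glycolysis and hypoxia median was -0.40, with 8 members lower in M1. Copy number was not measured, and what lies behind the chromosome-wide level was not tested.

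No other chromosome median went past 0.28 in size, but parts of some chromosomes were shifted, and in 2 of them M2 was the line apart. On chromosome 7, with a median of 0.28, the highest window ran from Chsy1 to Blm at 0.56, where M2 was at -0.48 and M1 at 0.14 from the epithelial mean. On the X chromosome, with a median of 0.22, the window from Wdr44 to Arhgef6 was at 0.67, with 44 of 51 genes higher in M1, M2 at -0.56 and M1 at 0.08 from the epithelial mean. On chromosome 16 the window from Eif4a2 to Umps was at 0.50 with M1 at 0.44 from that mean, and on chromosome 13 the window from B3galnt2 to Acot13 was at 0.42 with 48 of 51 genes higher in M1. Chromosome 6 had a median of 0.27. In the epithelial pair the largest median was -0.26, on chromosome 17.

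**Figure D5:**
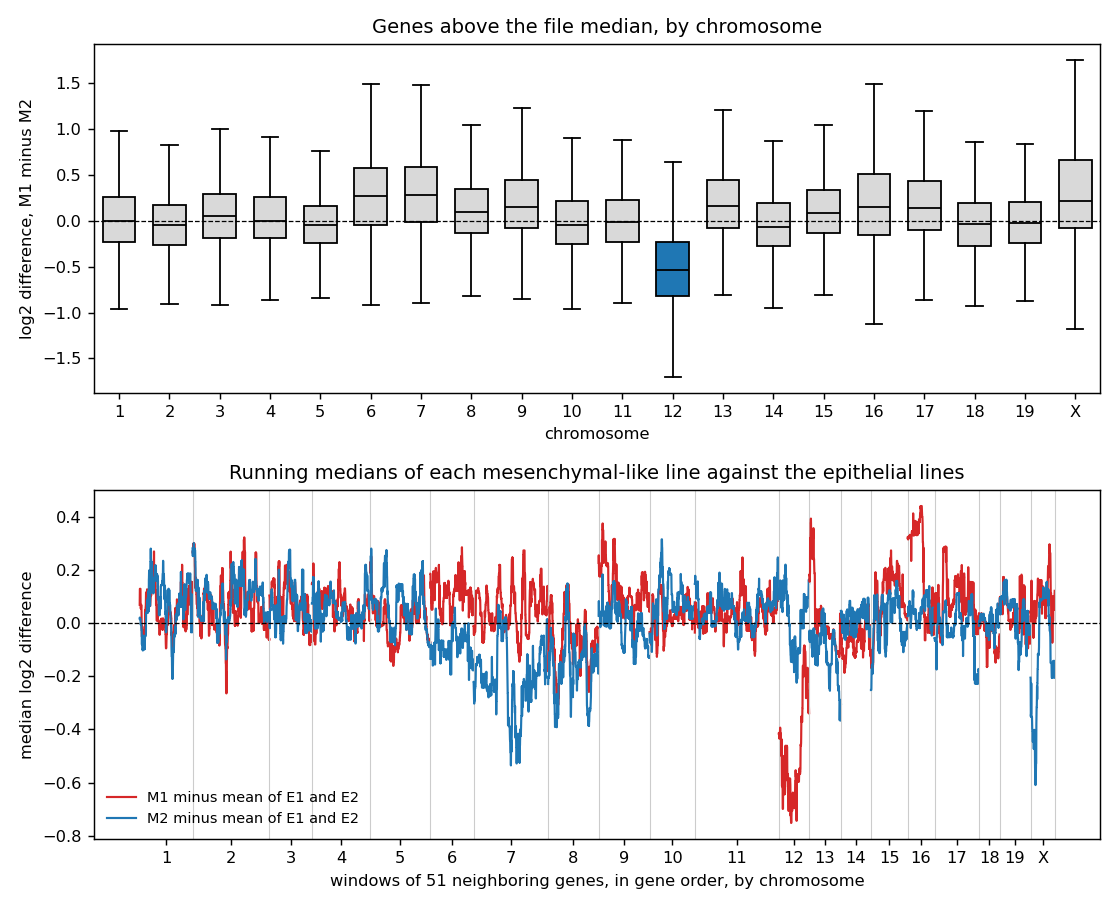
The upper panel gives box plots (median, quartiles, whiskers to 1.5 times the quartile range, points beyond not drawn) of the log2 difference M1 minus M2 by chromosome for genes above the file median; the lower panel gives running medians over windows of 51 neighboring genes of M1 (red) and M2 (blue) minus the mean of E1 and E2. Chromosome 12 has the median of -0.53 and the red line is lowest there, while the blue line is lowest on parts of chromosomes 7 and X.

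Cell identity genes were largely shared by the clones. Of 33 epithelial junction and identity genes, 2 were at least 2-fold higher in M1, the splicing regulator Esrp2 (7.63 against 6.40) and Krt7 (8.05 against 7.04), both far below the epithelial lines, and 0 were lower. Of 14 transcription factors and markers of the mesenchymal state, Snai2 was at 11.12 in M1 and 9.39 in M2, against 6.03 in E1 and 5.57 in E2, and Prrx1 at 10.24, 11.64, 5.73 and 5.82. Both clones were above the epithelial lines for both factors, and Snai2 was the higher in M1 and Prrx1 the higher in M2. Of 14 luminal mammary genes, the estrogen receptor Esr1 was at 8.59 in M1 against 7.45 in M2, 6.58 in E1 and 6.61 in E2. The milk protein Csn3 was at 10.73, 12.86, 12.95 and 12.93 in the same order, with M1 apart. Among 15 stem cell and sorting markers, 2 were lower in M1, Nt5e (2.86-fold) and Lgr6 (18.2-fold). Lgr6 was at 7.01 in M1, against 11.19 in M2, 10.60 in E1 and 11.82 in E2. Of 18 smooth muscle genes, Des was 2.06-fold higher and Smtn 2.44-fold lower. Of 52 keratins, 2 were higher, Krt80 and Krt7, and 1 lower, Krt23.

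Markers of other cell types were few and mixed. Of 12 endothelial markers, 0 were past 2-fold, and their median level was 6.33 in both clones. The median level of immune markers was 5.81 in M1 and 5.73 in M2, of adipocyte markers 6.64 in both, and of fibroblast markers 7.03 in M1 against 6.12 in M2. Of 14 immune markers, Lyz2, a lysozyme of myeloid cells, was at 8.91 in M1 and 6.57 in M2, against 5.08 in E1 and 5.65 in E2, and Cd68 at 10.59, 11.60, 10.66 and 8.77. Of 8 adipocyte markers, 2 were higher in M1 (Cd36 and Lpl) and 2 lower (Fabp4 and Pparg), and of 14 fibroblast markers 2 were higher (Dcn and Pdgfrb) and 1 lower (Pdgfra). The part of other cells in the results was not tested.

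Of 94 transcription factors of development, 3 were at least 2-fold higher in M1 and 7 lower, beside 3.24% and 2.61% of all genes. Their median of -0.06 was smaller than the shift from centring the arrays and has no settled direction. Tbx15 was at 10.60 in M1 and 8.48 in M2, against 5.01 in E1 and 5.13 in E2. Eya4 was 5.93-fold higher in M1 and its relative Eya2 3.26-fold lower, and Gata6 was at 9.78, 11.18, 6.53 and 6.74 in M1, M2, E1 and E2. Hox cluster genes, which record body position, had 0 of 37 past 2-fold. Their median level was low, at 6.16 in M1 and 6.26 in M2, and 12 of them were above the file median in either clone. Of 44 nuclear receptors, 4 were higher and 2 lower. The oxysterol receptor Nr1h3 was at 10.43 in M1 and 8.17 in M2, the vitamin D receptor Vdr at 10.54 and 8.37, and Rorb at 6.78 and 10.02. Of 29 imprinted genes, 0 were higher and 3 lower, Igf2r and its antisense transcript Airn (8.83 against 9.91) and the adaptor Grb10 at 5.95 in M1 and 9.08 in M2. Igf2r and Airn overlap, and how far their probe sets keep the strands apart was not tested.

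The remaining lists had few members past 2-fold, beside 3.24% of all genes higher in M1 and 2.61% lower. Of 70 glycosyltransferases, 4 were higher in M1 and 2 lower, among them B4galt6 at 8.95 in M1 and 6.32 in M2 with E1 at 10.89 and E2 at 10.57. Of 39 autophagy and lysosome genes, 2 were higher, the lysosomal protease Ctsc, at 10.70 against 7.70 in M2, and Rragd (10.2-fold), a GTPase of nutrient sensing. Of 41 enzymes of purine and pyrimidine metabolism, 2 were higher, Nudt11 and Umps, and 4 lower, among them the uridine phosphorylase Upp1 at 8.85 in M1 against 10.05 in M2. Of 24 metallothioneins and glucocorticoid targets, 3 were higher, Orm1, Orm2 (3.09-fold) and Dusp1 (2.28-fold), and 0 lower. Dock exchange factors had a median of -0.33, which was 0 with low values raised to the file median, and 2 of 10 were lower, Dock8 and Dock11 (2.82-fold). Dock6 was counted by its brightest probe set, while the differences of its 15 probe sets ran from -3.74 to -0.35. S100 proteins had 1 of 16 lower (S100a8, at 9.02 against 11.45), clock genes 1 of 17 higher (Rora, at 9.05 against 7.85), clustered protocadherins 1 of 22 lower (Pcdhb22, 2.15-fold), and the dosage genes of the sex chromosomes 0 of 12. Vomeronasal receptors had 3 of 169 lower, which are the run named above.

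Precursors of microRNAs showed little difference at the level these arrays can read. Of 296 microRNA genes, 0 were at least 2-fold higher in M1 and 2 lower. Mir27a was at 7.16 in M1 and 8.80 in M2, against 8.15 in E1 and 7.27 in E2, and Mir350 at 4.43, 5.47, 4.64 and 4.28. Mir23a and Mir24-2, which lie beside Mir27a in 1 cluster on chromosome 8, differed in the same direction under 2-fold, by -0.81 and -0.82. The main mature forms of this cluster, from RefSeq, are given because its 3 members differed in the same direction, with the seed (bases 2 to 8) in capitals. They have 3 different seeds, and the mature forms themselves were not measured. Their positions are chr8:84208727-84208747, chr8:84208563-84208583 and chr8:84208875-84208896 on the + strand of GRCm38.p6.
mmu-miR-27a-3p: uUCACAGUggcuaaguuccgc
mmu-miR-23a-3p: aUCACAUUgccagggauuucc
mmu-miR-24-3p: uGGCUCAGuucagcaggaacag

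The genes nearest to the 10-fold bound were of mixed function. Of the 15 that led the higher direction, Zfp57, a zinc finger protein that maintains imprints, was at 10.53 in M1 and 7.23 in M2, against 6.33 in E1 and 6.44 in E2, and the cytoskeletal adaptor Ank2 at 9.78, 6.54, 6.35 and 6.51. The secreted protease inhibitor Slpi was at 10.18, 7.05, 6.72 and 9.48. For Palmd, Stard10, Enpp3 and Akap12 the level of M2 was the low one, with the signaling scaffold Akap12 at 9.60, 6.57, 11.90 and 11.95 and the lipid transfer protein Stard10 at 11.71, 8.64, 11.87 and 12.34. In the lower direction, the kinase Mapk13 was at 7.61, 10.72, 9.50 and 9.53 and the adenylate kinase Ak4 at 8.32, 11.35, 10.79 and 10.57, with M1 as the low line. Basp1, a growth cone protein, was at 8.28, 11.33, 8.19 and 9.93, and protein kinase C beta (Prkcb) at 6.46, 9.45, 6.33 and 6.24, with M2 as the high line. The toll-like receptor partner Tril was the closest to 10-fold, at 5.66 in M1 and 8.98 in M2, with E1 at 6.37 and E2 at 9.53.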

How the data were processed

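RNA of the 4 clonal lines was hybridized to Affymetrix MoGene 1.0 ST arrays, 1 per line. The deposited values are log2 expression levels that the authors normalized; the submitters' processing notes name Partek, and the background and normalization methods are not given in the sources used here. The paper names a column kit for RNA and the labels Trizol. Array medians were 6.75 (M1), 6.85 (M2), 6.76 (E1) and 6.75 (E2). Of 35556 probe sets, 21789 had 1 gene symbol, 1621 several and 12146 none; of the first, 21698 had their gene identifier in a later RefSeq table, and 0 symbols changed.

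Differences were taken without rescaling in Python 3.11.15 with pandas 2.3.3 and numpy 2.4.6, figures were drawn with matplotlib 3.10.9, and the scripts were tested on simulated data. A gene stood for its brightest probe set by the mean over the 4 arrays; 999 genes had several, of which 0 had them past 2-fold on opposite sides and 60 had only some past 2-fold. Gene order for 19841 genes, promoters and microRNA positions came from RefSeq (GRCm38.p6). There were 72 lists and families, and the 68 without the 4 reference families hold 1842 measured genes. Named were the 4 markers, up to 8 members a list at least 2-fold apart with the largest differences, the 15 largest in each direction under 10-fold and the 10 largest at or over it, 7 label check genes and members of runs. The members, lists and rules were chosen with earlier results of these data known, some lists hold genes seen before, and no test was run. Alternatives were quantile normalization, centring on array medians, filters and floors on low values, and other choices of probe sets.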

Additional observations from a re-analysis of the deposited data

How the results depend on the processing

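No named gene at least 2-fold apart changed direction under any alternative. For centring and for a floor on low values this was fixed, since neither can reverse a 2-fold difference. When values below the file median were raised to it, 30 probe sets were at least 10-fold higher in M1 and 24 lower, against 59 and 40, and 4 were at least 10-fold lower in E2 than in E1, against 10; a floor lowers such folds by construction. The other 37 counts of probe sets stayed within 1.5 times. Centring the arrays moved the median of all genes by 0.099, so list medians smaller than that have no settled direction, and 32 of 72 changed sign, as did the difference of Vim. It gave 782 genes at least 2-fold higher in M1 and 446 lower; quantile normalization moved it by 0.057, with 662 and 534, and 26 list medians changed sign. Without chromosome 12, 4 did. Chromosome medians changed sign in 9 of 20 cases under either scaling, none of them over 0.05 in size as deposited. Of 270 named genes at least 2-fold apart, 267 kept this with quantile normalization (not Hmox1, Mcm5 and Pparg), 262 with centring (not Airn, Cd200, Cd68, E2f8, Hspg2, Itga5, Pparg and Scd1), 248 with the raised floor and 269 with the mean of probe sets (not St3gal1). Lost with the floor were Akr1c12, Aspa, C1s2, Cbr3, Ces1f, Ces2f, Col12a1, Dock11, Esrp2, Il7 and Krt23. So were Mmp1a, Nrarp, Nrg3, Pcdhb22, Pla2g7, Pparg, Serpinb1b, Serpinb7, Slc16a10, Tnfsf18 and Tslp. In all of them the lower of M1 and M2 lay below the file median. Recalculated list medians stayed within 0.276, the spread taken from E1 and E2, in 359 cases. The remaining 1, that of the Dock genes with the floor, moved further. That spread is a difference between 2 clones, and the noise of a list median was not measured. Centring moves every difference by the same 0.099, so it could not move any median past 0.276. The count of 359 therefore does not measure how firm the medians are. The chromosome medians under both scalings and the lists without chromosome 12 were chosen after seeing the data. No chromosome median moved past 0.276, and with centring none could. No paired analysis was possible because each group has 1 array. The signal over background is not given, which limits every fold with a low level.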
